A study of Mus musculus with 12 samples.

Results

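The comparison described here is the response of mouse dendritic cells labelled ythdf1-/- to overnight contact with killed tumour cells, read across all genes of an RNA-seq table. Its members are 4 of the 12 samples of the series, chosen by their labels alone: 2 libraries of ythdf1-/- cells kept alone and 2 libraries of ythdf1-/- cells given tumour lysate. The 4 wild-type libraries of the same table (2 alone, 2 with lysate) served only to estimate the spread and to test where the response of the ythdf1-/- cells differed. The remaining 4 samples, wild-type cells with lysate from an immunoprecipitation with an antibody to YTHDF1 and its inputs, were not used here. All cells were bone marrow-derived dendritic cells, called GMDCs in the series title, and the lysate was necrotic B16-OVA, a mouse melanoma line that makes the model antigen ovalbumin. Dendritic cells were purified after the culture, their total RNA was extracted and libraries were made from its mRNA. The labels give neither the sex or age of the mice, nor the altered part of the Ythdf1 gene, nor whether replicates 1 and 2 came from separate animals, so the p-values measure the spread between these libraries, which may be technical.

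Dendritic cells engulf dying cells, break their proteins down in acid lysosomes with cathepsins and other hydrolases, and load the peptides on MHC class II and class I molecules for display to T cells. Nucleic acids of the engulfed cells can reach Toll-like receptors and cytosolic sensors, which start the making of type I interferon. Interferon then acts through JAK kinases on STAT proteins and IRF9, which bind the interferon-stimulated response element in the promoters of antiviral genes such as Rsad2 and the Ifit family. YTHDF1 is a cytoplasmic protein that binds mRNA carrying the methylated base m6A and is known for raising the translation of such mRNAs. The values below measure mRNA, not translation.

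Promoters of 4 genes are shown as examples, 3 of interferon genes and the last of an MHC class II gene. A different short motif was searched for each of these groups, and neither group was searched for the motif of the other. The sequences are the 180 bases that end just before the gene start, 5′ to 3′ on the gene's strand, from RefSeq on build GRCm38.p6. Capitals mark the core of the interferon-stimulated response element, searched as GAAA, any 2 bases and GAAA on either strand (TTTC to TTTC as printed), in the first 3 genes, and CCAAT on either strand in H2-Eb1.
Rsad2 (chr12:26456453-26456632, minus strand): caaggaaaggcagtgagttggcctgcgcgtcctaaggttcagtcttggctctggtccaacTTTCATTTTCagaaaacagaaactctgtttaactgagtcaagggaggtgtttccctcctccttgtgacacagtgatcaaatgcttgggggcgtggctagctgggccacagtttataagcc
Ifit3 (chr19:34583349-34583528, plus strand): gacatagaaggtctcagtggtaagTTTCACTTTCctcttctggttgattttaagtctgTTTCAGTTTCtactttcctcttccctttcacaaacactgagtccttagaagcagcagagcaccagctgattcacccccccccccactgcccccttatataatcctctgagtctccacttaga
Oasl1 (chr5:114923060-114923239, plus strand): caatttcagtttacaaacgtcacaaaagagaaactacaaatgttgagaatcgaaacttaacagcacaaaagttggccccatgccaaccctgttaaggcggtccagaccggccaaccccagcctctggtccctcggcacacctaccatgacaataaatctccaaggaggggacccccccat
H2-Eb1 (chr17:34305687-34305866, plus strand): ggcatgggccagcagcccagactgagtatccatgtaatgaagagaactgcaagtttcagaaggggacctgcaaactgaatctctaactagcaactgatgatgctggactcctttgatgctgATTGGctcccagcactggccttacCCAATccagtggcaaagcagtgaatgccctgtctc

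In the Rsad2 promoter the match began 120 bases before the start, and in the Ifit3 promoter matches began 156 and 122 bases before it. These 180 bases of Oasl1 held none, and those of the risen interferon gene Cmpk2, not printed here, held none either. Across the interferon gene lists described further on, 29 of 68 promoters of genes that rose (42.6%; 27 of the 57 genes with a promoter in the RefSeq table, of 73 that rose) held the core within 250 bases, against 978 of all 32851 promoters (2.98%). The share was 36.2% over all measured members of these lists and 28.6% (2 of 7) for those that fell. The motif was thus frequent across the lists as a whole, and the 7 promoters of fallen genes are too few to compare the directions. CCAAT lay in 6 of 7 promoters of MHC class II genes that fell, in 80% of promoters of all measured members and in 33.8% of all promoters. The 6-base core CACGTG, which the lysosomal regulator TFEB can bind, was searched for the lysosomal lists. It lay in 6 of 21 promoters of their genes that rose (28.6%) and in 1 of 2 of those that fell. The share was 21.1% over all measured members and 6.02% over all promoters. TGACNNNGC, the core that NRF2 binds, lay in 4 of 11 promoters of NRF2 list genes that rose (36.4%), in 1 of 2 of those that fell and in 23.5% over all measured members, against 10.2%. TCACNCCAC, searched for the sterol list, was in none of the 4 promoters of sterol genes that fell, in 4.35% over all measured members and in 1.05% of all promoters. TGATGNAA, searched for the ATF4 list, was in none of the 3 promoters of the 2 genes called there, in 24.1% over all measured members and in 3.45% of all promoters. A match is a run of letters, not a shown binding site, and was searched on both strands.

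The deposited table holds log2 values for 11786 genes and 8 libraries, so depth is unknown and levels below carry no count. Library medians lay between 8.53 and 8.55. Replicate libraries differed by an SD over genes of 0.112 for the ythdf1-/- cells with lysate and of 0.161 for those alone, against 0.139 and 0.143 in the wild-type pairs. The lysate pair was thus the tightest of the 4 pairs and the untreated ythdf1-/- pair the widest. Transcript GC content moved with the difference between the untreated ythdf1-/- libraries, with a Spearman correlation of 0.62 across 11486 genes, which share the same 2 libraries. It also moved with the lysate change of the ythdf1-/- cells (Spearman -0.27 across the same genes). In the 10% of genes with the lowest GC content (median 39.7%) the median lysate change was 0.08, and in the 10% with the highest (median 59.4%) it was -0.09. The median GC content was 48.4% for genes that rose, 52.6% for genes that fell and 49.7% for all genes. The part of GC content in the changes was not tested, and counts with its trend and that of transcript length removed are given beside the lists where they moved by over 1.5 times.

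**Figure D1:**
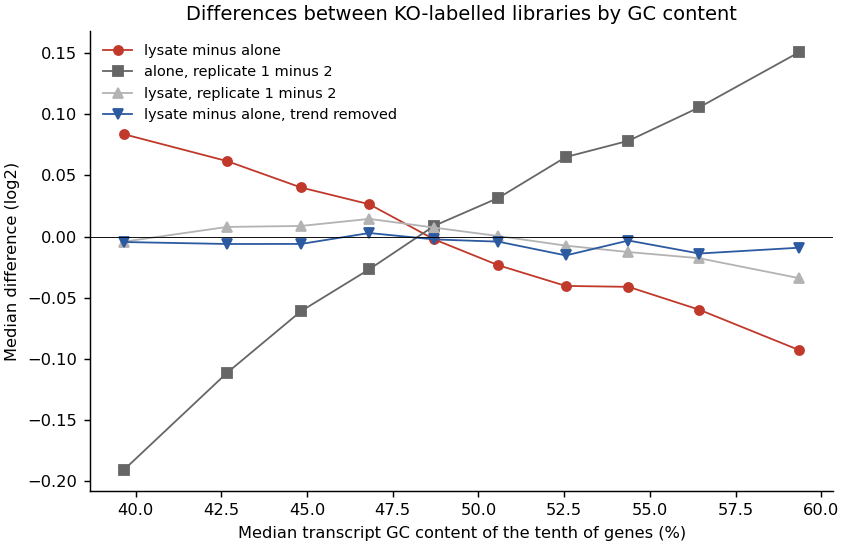
Median log2 difference in 10 equal groups of genes ordered by transcript GC content (x axis, percent), for the ythdf1-/- libraries. Lysate minus alone falls from 0.08 to -0.09 along the axis, untreated replicate 1 minus 2 rises from -0.19 to 0.15, and the lysate replicates differ by -0.03 in the group of highest GC content.

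Ythdf1 itself, on chromosome 2, did not mark the genotype in these values. Its level was 9.53 and 9.43 in the untreated ythdf1-/- libraries and 9.51 and 9.46 in those with lysate, against 9.58 and 9.43 in untreated wild type and 9.72 and 9.58 in wild type with lysate. The ranges of the genotypes overlapped. Lysate changed it by 0.01 ± 0.081 in the ythdf1-/- cells (limma adjusted p = 0.954). The labelled genotype is therefore not checked by this mRNA, and the cells are called by their label throughout.

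Tumour lysate changed 1792 of 11785 genes in the ythdf1-/- cells (15.2%) by limma's test at an adjusted p of 0.05, with 976 higher (8.28%) and 816 lower (6.92%). All 1792 had both lysate libraries on the same side of both untreated libraries, a separation that 6967 genes (59.1%) showed. Most changes were small: the median size among called genes was 0.36 on the log2 scale and the smallest 0.20. At least 1.5-fold changes numbered 126 higher and 44 lower (170 genes, 1.44%), and at least 2-fold changes 11 higher and 2 lower (13 genes, 0.11%). The number of calls changed when 1 library was left out. It fell to 564 without the first lysate library, to 567 without the second and to 1109 without the first untreated library, and rose to 2275 without the second. Calls that held in all 8 fits that left out 1 library numbered 402 (3.41%), and genes named below as risen or fallen belong to these unless their loss is stated. A count or call without either library means that 1 of the 2 was left out at a time. All values are on the log2 scale, changes are lysate minus alone, the error given after each is the standard error from the fit (n = 2 libraries a group), and adjusted p-values cover all genes tested. Counts for gene lists are descriptions, to be read beside the 8.28% higher, 6.92% lower and the median change of -0.00 over all genes.

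**Figure D2:**
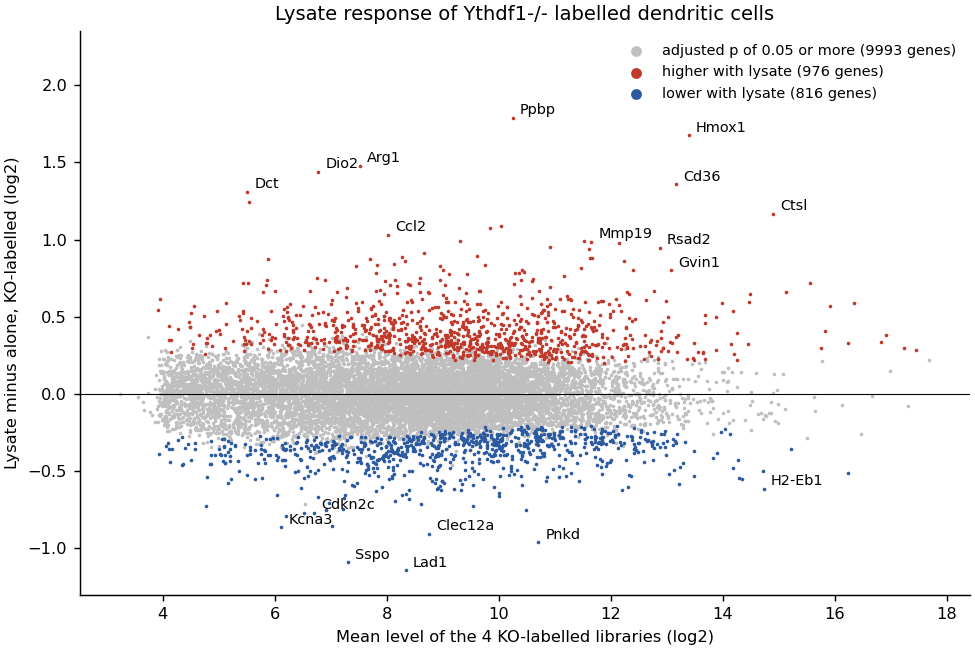
Each point is a gene of the ythdf1-/- comparison, with its mean level over the 4 libraries (x axis, log2) and its lysate change (y axis, log2). The 976 genes in red rose and the 816 in blue fell; Ppbp at 1.79 and Hmox1 at 1.68 stand highest, Lad1 at -1.14 and Sspo at -1.09 lowest.

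The genes with the largest rises encoded a chemokine, a haem-degrading enzyme, an arginine-degrading enzyme and a lipid scavenger. Ppbp, whose chemokine product attracts neutrophils, stood at 9.35 in both in the untreated libraries and at 11.12 and 11.16 with lysate, a rise of 1.79 ± 0.065 (limma adjusted p = 4.49e-09), or 3.46-fold. Hmox1, the inducible enzyme that breaks down haem, went from 12.61 and 12.50 to 14.15 and 14.31, a rise of 1.68 ± 0.072 (limma adjusted p = 1.91e-08). The groups lay far apart beside the gap between replicates. Arg1, arginase, was at 6.69 and 6.87 alone and 8.12 and 8.39 with lysate (1.48 ± 0.11, limma adjusted p = 3.08e-06). Dio2, which converts thyroid hormone to its active form, was at 6.01 and 6.11 alone and 7.47 and 7.52 with lysate (1.44 ± 0.11, limma adjusted p = 3.08e-06). Cd36, a receptor for fatty acids, oxidised lipoproteins and dying cells, was at 12.34 and 12.63 alone and 13.79 and 13.89 with lysate (1.36 ± 0.096, limma adjusted p = 2.78e-06). None of these 5 had overlapping groups.

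Next came Ctsl, the lysosomal protease cathepsin L, which was already abundant at 14.32 and 14.31 and stood at 15.45 and 15.51 with lysate (1.17 ± 0.067, limma adjusted p = 5.35e-07). Pdpn, a mucin-like surface protein that binds the receptor CLEC-2, rose by 1.09 ± 0.073, and Rgl1, an exchange factor for Ral GTPases, by 1.07 ± 0.075. The monocyte-attracting chemokine gene Ccl2 rose by 1.03 ± 0.098 from 7.37 and 7.64 to 8.49 and 8.58. Slc7a8, an amino acid transporter, Bcar3, an adaptor of integrin signalling, Mmp19, a matrix metalloproteinase, and Il1rn, the antagonist of the IL-1 receptor, rose by 0.99, 0.99, 0.98 and 0.98. The pigment genes Dct and Tyrp1 complete the 15 largest rises and are described with the tumour transcripts.

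The deepest falls were shallower than the largest rises. Lad1, which encodes ladinin of the basement membrane zone, went from 9.01 and 8.80 to 7.75 and 7.78, a fall of 1.14 (limma adjusted p = 5.24e-06). Sspo, which encodes the secreted glycoprotein SCO-spondin, went from 7.93 and 7.77 to 6.82 and 6.70 and fell by 1.09 (limma adjusted p = 2.41e-05). Pnkd went from 11.28 and 11.08 to 10.19 and 10.25, and Clec12a, an inhibitory lectin receptor that senses crystals from dead cells, from 9.18 and 9.24 to 8.34 and 8.26. They fell by 0.96 and 0.91. The other 11 included the cell cycle inhibitor Cdkn2c (-0.77), the transcription regulators Id3 (-0.75) and Sox4 (-0.72), and the scavenger receptor family gene Scara3 (-0.79). Dscaml1, Reep1, Nudt17, Cacna2d2, Tnnt2 and Bmp1 fell by between 0.71 and 0.85. Kcna3, a voltage-gated potassium channel, rested on 1 library: it was at 7.20 and 5.89 in the untreated libraries and 5.65 and 5.72 with lysate, a fall of 0.86. Its call was lost without either wild-type lysate library, either ythdf1-/- lysate library or the first untreated ythdf1-/- library (highest adjusted p = 0.315).

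**Figure D3:**
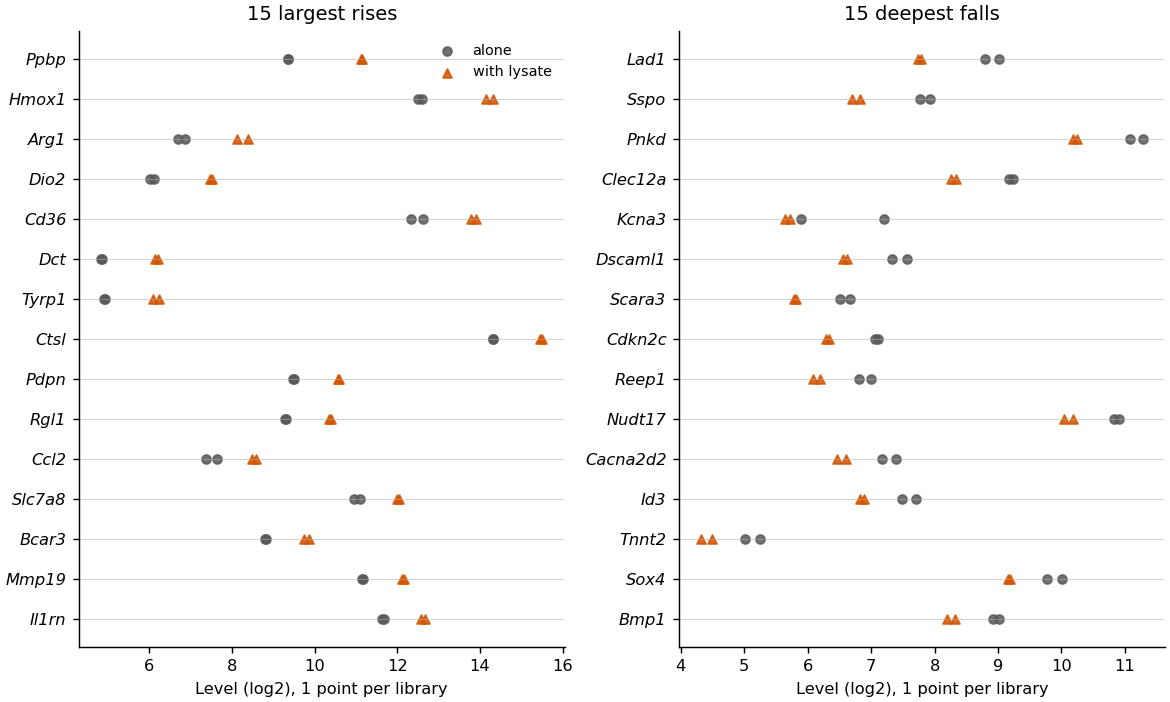
Level of the 15 genes with the largest rises and the 15 with the deepest falls (x axis, log2), 1 point for each ythdf1-/- library, circles alone and triangles with lysate. Circles and triangles do not overlap in any row, and in Kcna3 the untreated libraries stand at 7.20 and 5.89.

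Interferon response genes mostly rose. Of 51 measured effector genes, 38 rose and 3 fell, with a median change of 0.35; 23 rose without the first lysate library and 21 without the second. Rsad2, the antiviral enzyme viperin, was at 12.36 and 12.44 alone and 13.29 and 13.41 with lysate (0.95 ± 0.071, limma adjusted p = 3.08e-06). Ifit2, whose product restrains translation of viral RNA, was at 11.16 and 11.11 alone and 12.05 and 12.09 with lysate (0.94 ± 0.076, limma adjusted p = 6.33e-06). Its relative Ifit3 was at 11.78 and 11.83 alone and 12.61 and 12.71 with lysate (0.86 ± 0.064, limma adjusted p = 3.08e-06). The groups stood apart in each of these genes. Ifit3b rose by 0.81, but its sequence is nearly that of Ifit3 and the counting may have split reads between them. Cmpk2, a nucleotide kinase that lies beside Rsad2 on chromosome 12, rose by 0.78 ± 0.075. Of the genes for oligoadenylate synthetase-like proteins, Oasl1 rose by 0.75 ± 0.077 and Oasl2 by 0.50 ± 0.061.

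The 3 effectors that fell were Epsti1, Mx1 and Apobec3, the last named after its value was seen. Epsti1 was at 12.58 in both alone and 12.07 and 12.04 with lysate, a fall of 0.53 (limma adjusted p = 0.00019). Mx1, an antiviral GTPase, was at 13.68 and 13.64 alone and 13.35 and 13.23 with lysate, a fall of 0.37 (limma adjusted p = 0.00245) that was not called without the second lysate library (adjusted p = 0.06). Apobec3, which encodes a cytidine deaminase that restricts retroviruses, fell by 0.21 (limma adjusted p = 0.0405), a call lost with 1 library left out (highest adjusted p = 0.202).

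The Schlafen and Ifi200 genes, which respond to interferon and include DNA sensors of the cell nucleus and cytosol, rose as a group: 15 of 17 rose, none fell, and the median change was 0.55. Without either lysate library 14 rose. The largest was Ifi213, at 7.59 and 7.84 alone and 8.53 and 8.59 with lysate (0.84 ± 0.13, limma adjusted p = 0.000752). Ifi205, Ifi208, Ifi204 and Ifi211 rose by 0.69, 0.66, 0.65 and 0.64, and Slfn5, Slfn10-ps and Slfn4 by 0.60, 0.55 and 0.54. Slfn2 changed by 0.20 ± 0.073 and missed the threshold (limma adjusted p = 0.0776). Members of both families are close copies of each other, so the split of reads between neighbours is uncertain.

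The large GTPases that attack vacuoles of parasites moved in both directions. Of 17 measured, 9 rose and 4 fell; 4 rose and 2 fell without the first lysate library, and 5 and 2 without the second. Gvin1 was at 12.54 and 12.80 alone and 13.49 and 13.46 with lysate (0.80 ± 0.1, limma adjusted p = 0.000283), and Tgtp2 at 8.68 and 8.75 alone and 9.44 and 9.54 with lysate (0.78 ± 0.075, limma adjusted p = 3.04e-05). Irgm1, a regulator of the immunity-related GTPases, rose by 0.56 ± 0.066 and Ifi47 by 0.50 ± 0.085. Guanylate-binding protein genes were among both the rises and the falls. Gbp4 was at 9.15 and 9.33 alone and 8.65 and 8.63 with lysate (-0.60 ± 0.087, limma adjusted p = 0.000622), and Gbp8 fell by 0.55 (limma adjusted p = 0.0014). Gbp2, more abundant than Gbp4 and Gbp8 at 10.98 and 10.999 alone, changed by 0.04 ± 0.067 (limma adjusted p = 0.722).

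Among 30 sensors and transcription factors of the interferon system, 12 rose and 4 fell, and without the lysate libraries in turn 7 and 6 rose, and 1 and 0 fell. Without the first untreated library 9 rose and 0 fell. Irf7, the factor that amplifies interferon transcription, was at 11.41 and 11.33 alone and 11.81 and 11.85 with lysate (0.45 ± 0.071, limma adjusted p = 0.00104). Stat2, which encodes a partner of IRF9, rose by 0.36 ± 0.065. The genes for the cytosolic RNA sensors MDA5 (Ifih1) and RIG-I (Ddx58) rose by 0.46 ± 0.082 and 0.41 ± 0.069, and the single-stranded RNA receptor gene Tlr7 by 0.54 ± 0.091. These 5 kept the call in all 8 fits, with Stat2 at a highest adjusted p of 0.0448. Stat3, which signals downstream of IL-6 and IL-10, fell by 0.25 and lost the call without either lysate library or the first untreated library (highest adjusted p = 0.159). Irf8, a factor of dendritic cell development at a level of 14.23 and 14.06 in the untreated libraries, changed by -0.11 ± 0.073 (limma adjusted p = 0.339).

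**Figure D4:**
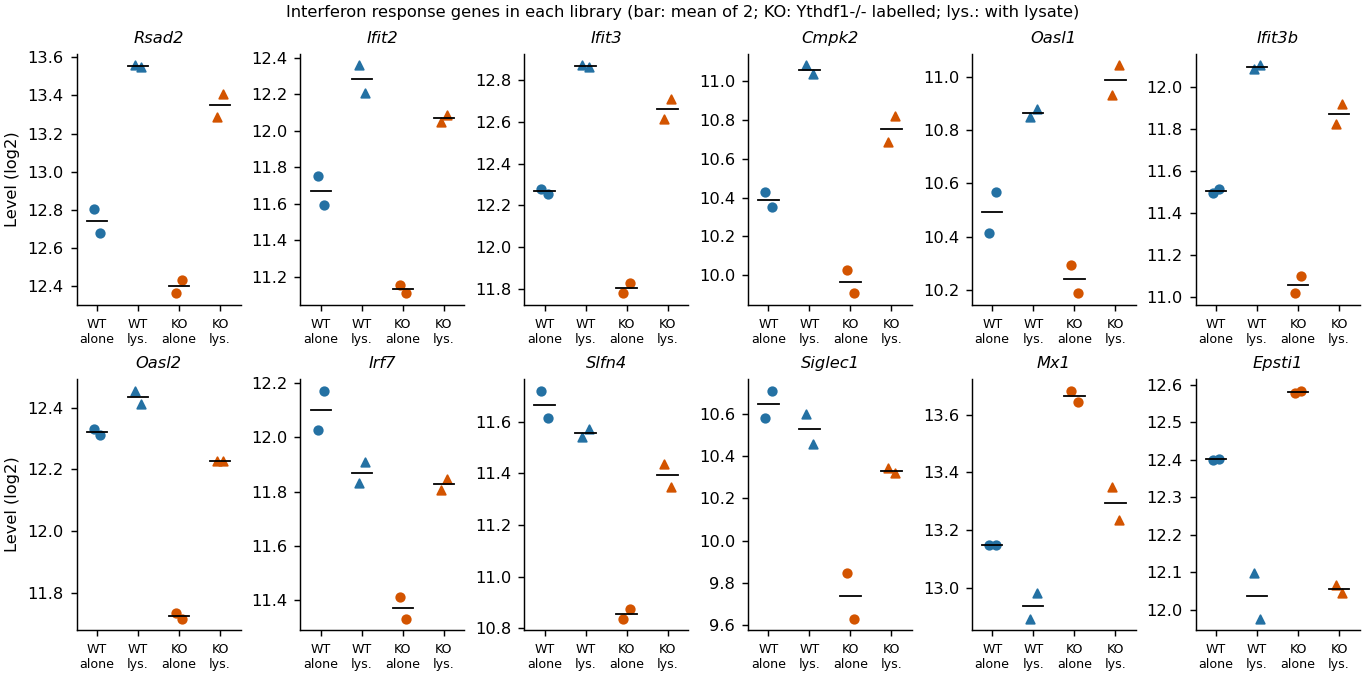
Level of 12 interferon response genes (y axis, log2; each panel has its own scale) in the wild-type (blue) and ythdf1-/- (orange) libraries, circles alone and triangles with lysate, bars for the mean of 2. The ythdf1-/- triangles lie above the circles in every panel but those of Mx1 and Epsti1, where they lie below.

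Chemokines and cytokines of inflammation rose in part. Of 35 measured, 15 rose and 2 fell (12 and 1 without the first lysate library, 13 and 0 without the second), and the median change was 0.16. Beside Ppbp and Ccl2, the neutrophil chemokine gene Cxcl3 was at 9.25 and 9.08 alone and 10.02 and 10.11 with lysate (0.89 ± 0.077, limma adjusted p = 1.17e-05), and Cxcl2 at 12.19 and 12.20 alone and 12.66 and 12.70 with lysate (0.48 ± 0.061, limma adjusted p = 0.000217). Pf4, a chemokine gene of the same family as Ppbp, rose by 0.67 ± 0.086, and the monocyte chemokine gene Ccl7 by 0.67 ± 0.1. Il1rn was at 11.62 and 11.68 alone and 12.57 and 12.68 with lysate, and Il18bp, whose product binds and blocks IL-18, rose by 0.52 ± 0.076. Il1r2, the decoy receptor for IL-1, changed by 0.06 ± 0.075 and was not called. Ccl5, a T cell chemokine at 14.09 and 13.97 alone and 13.67 and 13.56 with lysate, fell by 0.42 (limma adjusted p = 0.00339), a call lost without the second lysate library (adjusted p = 0.0703). The other gene that fell, Il12b, is named after its value was seen and changed by -0.28 ± 0.079 (highest adjusted p = 0.266 with 1 library left out); it encodes the shared subunit of IL-12 and IL-23. Ccl9 and Cxcl16, both abundant, changed by 0.11 ± 0.066 and -0.12 ± 0.067 and were not called.

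NF-kB subunits and their feedback regulators gave falls only: of 21 measured, none rose and 4 fell, beside 6.92% lower over all genes. These calls were lost without either lysate library or without the first untreated library. The falls numbered 7 without the second untreated library, and with the GC and length trend removed 1 rose and 10 fell. Nfkb2 stood at 12.90 and 12.63 alone and 12.37 and 12.41 with lysate (-0.37 ± 0.091, limma adjusted p = 0.0156, highest 0.145 without 1 of those libraries). Relb, its partner in the alternative pathway, changed by -0.33 ± 0.086 (limma adjusted p = 0.0223, highest 0.162). Nfkbia, the inhibitor that NF-kB itself induces, was at 13.35 and 13.33 alone and 13.24 and 13.33 with lysate, with overlapping groups. Inflammasome and IL-1 receptor genes gave 4 rises in 17 (Nlrc4, Casp4, Il1rap and Naip2, between 0.26 and 0.38), all lost without either lysate library, and 2 rose without the first untreated library. Immediate early genes gave 8 rises in 30, between 0.23 and 0.42, with none left without either lysate library. Without the second untreated library 5 rose and 3 fell, and with the GC and length trend removed 11 rose and 2 fell. Egr1 was at 11.37 and 11.36 alone and 11.67 in both with lysate (0.30 ± 0.068, limma adjusted p = 0.00955, highest 0.0962 without 1 of them).

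Receptors for dead cells and lipids rose more often than fell. Of 31 scavenger and dead-cell uptake genes, 15 rose and 1 fell (10 and 0 without the first lysate library, 7 and 1 without the second), with a median of 0.21. Msr1, scavenger receptor A, was at 11.92 and 12.07 alone and 12.81 and 12.79 with lysate (0.80 ± 0.075, limma adjusted p = 2.12e-05). Havcr2, which encodes the phosphatidylserine receptor TIM-3, was at 8.70 and 8.69 alone and 9.30 and 9.36 with lysate (0.64 ± 0.074, limma adjusted p = 0.000132). Cd93 rose by 0.60 ± 0.066, Anxa1, whose product binds phospholipids and limits inflammation, by 0.59 ± 0.063, Cd300lf by 0.50 ± 0.065 and the endocytic receptor Lrp1 by 0.47 ± 0.072. In all of these the lysate libraries lay above both untreated libraries. The complement gene C1qa fell by 0.42 (limma adjusted p = 0.00414), which was not called without the first lysate library (adjusted p = 0.094). Mfge8, the bridge between phosphatidylserine and integrins and a very abundant gene at 14.30 and 14.15, changed by 0.05 ± 0.081 and was not called.

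Toll-like receptor genes gave 8 rises and 1 fall in 22 (4 and 0 without the first lysate library, 6 and 0 without the second). Cd180, a relative of TLR4, was at 10.24 and 10.33 alone and 10.91 and 10.90 with lysate (0.62 ± 0.076, limma adjusted p = 0.000187). Tlr13, the sensor of bacterial ribosomal RNA, was at 11.11 and 11.22 alone and 11.71 in both with lysate (0.54 ± 0.072, limma adjusted p = 0.000327), and Tlr5 rose by 0.49 ± 0.086. Cd14, the co-receptor for lipopolysaccharide, changed by -0.14 ± 0.069 and was not called. C-type lectins gave 5 rises and 1 fall in 20 (2 and 1 without either lysate library or the first untreated library): the mannose receptor gene Mrc1 rose by 0.55 ± 0.078, Clec2d by 0.48 ± 0.072, and the fall was Clec12a. Dectin-1 (Clec7a), at 12.54 and 12.80 alone and 12.61 and 12.66 with lysate, did not separate. Of 17 chemokine and chemoattractant receptor genes, 6 rose and none fell (4 and 3 rose without the lysate libraries in turn; 7 rose and 3 fell with the GC and length trend removed). C3ar1 and C5ar2, receptors for complement fragments, rose by 0.54 ± 0.085 and 0.45 ± 0.082, and Ccr1 by 0.49 ± 0.073. Ccr7, which guides mature dendritic cells to lymph nodes and was among the most abundant receptors at 14.81 and 14.68, changed by -0.12 ± 0.079 (limma adjusted p = 0.331). The high-affinity Fc receptor gene Fcgr1 was at 11.46 and 11.48 alone and 12.03 and 12.11 with lysate (0.60 ± 0.064, limma adjusted p = 7.89e-05); 2 of 7 Fc receptor genes rose and 1 fell (1 and 0 without either lysate library).

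Genes for the uptake, storage and breakdown of lipid gave 13 rises and 2 falls in 26 (9 and 0 without the first lysate library or the first untreated library, 10 and 0 without the second lysate library), with a median of 0.25. Mgll, monoacylglycerol lipase, was at 10.43 in both alone and 11.38 in both with lysate (0.95 ± 0.065, limma adjusted p = 2.17e-06). Its replicate libraries were almost equal within each group. The fatty acid binding protein gene Fabp4 was at 10.23 and 10.22 alone and 10.95 and 10.96 with lysate (0.73 ± 0.065, limma adjusted p = 1.47e-05). Lpl, lipoprotein lipase, was at 15.12 and 15.29 alone and 15.89 and 15.95 with lysate (0.72 ± 0.077, limma adjusted p = 8.35e-05). Plin2, which coats lipid droplets, rose by 0.59 ± 0.073, Lipa, the acid lipase of the lysosome, by 0.51 ± 0.062 and Fabp5 by 0.40 ± 0.064. LXR targets and cholesterol efflux genes gave 2 rises and 1 fall in 19 (1 rise without either lysate library; 3 and 3 with the GC and length trend removed): Npc1, which moves cholesterol out of lysosomes, rose by 0.47 ± 0.076, while Apoe, at 15.12 and 14.92 alone and 14.95 and 14.96 with lysate, was not called.

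Sterol synthesis lay on the other side, with 1 rise and 7 falls in 25 and a median of -0.16; 2 fell without the first lysate library, 1 without the second and 4 without the first untreated library. Dhcr7, a reductase late in cholesterol synthesis, was the rise and went from 7.497 and 7.71 to 8.09 in both (0.49 ± 0.088, limma adjusted p = 0.00269). Tm7sf2 and Cyp51 fell by 0.45 and 0.41; Tm7sf2 lost the call without the second lysate library (adjusted p = 0.0512) and Cyp51 without either (highest 0.0885).

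Lysosomal genes rose more often than they fell. Of 45 genes listed under hydrolases and membrane proteins, 16 rose and none fell, with a median of 0.14. Fewer rose without either lysate library, with medians of 0.12 without the first and 0.13 without the second. The list also holds the lipid droplet gene Plin2 and the transcription factor genes Mitf, Tfeb and Tfe3. Plin2, described above with lipid storage, was among the rises. Mitf rose by 0.45 in the fit of all 8 libraries (limma adjusted p = 0.00366) and is not counted here among calls that held throughout. Acp5, an acid phosphatase, was at 10.41 and 10.34 alone and 10.995 and 11.09 with lysate (0.67 ± 0.073, limma adjusted p = 8.97e-05). Cd68, a glycoprotein of late endosomes, was at 12.39 and 12.27 alone and 12.96 and 12.92 with lysate (0.61 ± 0.089, limma adjusted p = 0.000637). Galns, a sulfatase, rose by 0.47 ± 0.076 and the peptidase gene Tpp1 by 0.42 ± 0.064. Of 18 subunits of the V-ATPase, the pump that acidifies lysosomes, 5 rose and none fell (2 without either lysate library, 11 with the GC and length trend removed), led by Atp6v0d2 at 11.73 and 11.84 alone and 12.39 and 12.41 with lysate (0.62 ± 0.079, limma adjusted p = 0.000242), while Atp6v1c1 rose by 0.40 ± 0.067.

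Cathepsins, their relative legumain and cystatins gave 5 rises and 3 falls in 17 (5 and 0 without the first lysate library, 2 and 0 without the second, 9 and 4 with the GC and length trend removed). Apart from Ctsl, Ctsk rose by 0.48 ± 0.083 (limma adjusted p = 0.00194). Ctsd, an aspartic protease, was at 15.66 and 15.58 alone and 15.99 and 16.07 with lysate (0.41 ± 0.076), Ctsb at 16.09 and 16.05 alone and 16.39 and 16.42 with lysate (0.33 ± 0.066), and Lgmn rose by 0.33 ± 0.063. Each of these 3 lost the call without the second lysate library, with adjusted p-values of 0.0596, 0.0577 and 0.0665. Ctss, which trims the invariant chain of MHC class II, was at 15.64 and 15.69 alone and 15.86 and 15.90 with lysate; its change of 0.22 ± 0.069 just missed the threshold (limma adjusted p = 0.052). Ctsh, Ctsc and Ctsf fell by 0.28, 0.25 and 0.36, all lost without either lysate library (highest adjusted p 0.134, 0.222 and 0.152). None of the 8 measured subunits of the phagosomal NADPH oxidase was called, by limma in this fit or in any fit that left out 1 library, and 3 had an unadjusted p under 0.05; with the GC and length trend removed 1 rose and 2 fell. Cybb, its catalytic subunit, was at 12.96 and 12.99 alone and 12.97 in both with lysate.

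Haem, iron and antioxidant genes were led by Hmox1. Of 32 genes listed for NRF2, the transcription factor of oxidative stress, 9 rose and 2 fell, with a median of 0.14. The list also holds the NRF2 gene Nfe2l2 itself, Keap1 and Bach1, none of them called. Fewer were called without the first lysate, second lysate or first untreated library, with medians of 0.16, 0.13 and 0.14 in turn. With the GC and length trend removed 14 rose and 2 fell. Prdx1, a peroxidase, was at 14.12 and 14.22 alone and 14.80 and 14.83 with lysate (0.65 ± 0.073, limma adjusted p = 0.000109). Of 21 iron and haem genes, 7 rose and 1 fell (5 and 2 rose without the lysate libraries in turn). Slc48a1, which carries haem out of the phagolysosome, was at 11.59 and 11.45 alone and 12.11 and 12.15 with lysate (0.60 ± 0.07, limma adjusted p = 0.00014). The ferritin genes Fth1 and Ftl1, among the most abundant in the cells at 16.77 and 16.68 and 17.17 and 16.99 alone, rose by 0.38 ± 0.07 and 0.30 ± 0.088. Fth1 was not called without the second lysate library (adjusted p = 0.0509), and Ftl1 not without either of them or the second untreated library (highest 0.26).

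Genes of arginine and itaconate metabolism gave 4 rises and 1 fall in 17 (4 and 0, then 3 and 0, without the lysate libraries in turn; 7 and 1 with the GC and length trend removed). The cationic amino acid transporter gene Slc7a2 was at 9.18 and 9.11 alone and 9.74 and 9.72 with lysate (0.59 ± 0.079, limma adjusted p = 0.000357). Acod1, which makes itaconate, was at 8.83 and 8.65 alone and 9.39 and 9.33 with lysate (0.62 ± 0.09, limma adjusted p = 0.000617). Glycolytic enzyme genes gave 6 rises and 1 fall in 20 (2 and 1, then 2 and 0, without the lysate libraries, 3 and 1 without the first untreated library, and 9 and 2 with the GC and length trend removed), of which Hk3 (0.50 ± 0.076) and Pgam1 (0.42 ± 0.069) kept the call throughout. Hypoxia targets gave 5 rises and 1 fall in 22 (1 rise without either lysate library), of which P4ha1, a prolyl hydroxylase of collagen, kept it (0.58 ± 0.069). In the endoplasmic reticulum 9 of 26 chaperone genes rose and none fell (5 and 4 rose without the lysate libraries in turn). Pdia4 was at 10.93 in both alone and 11.56 and 11.53 with lysate (0.61 ± 0.066, limma adjusted p = 8.35e-05), and Hspa5, the central chaperone BiP, at 13.47 and 13.42 alone and 13.91 and 13.90 with lysate (0.46 ± 0.07, limma adjusted p = 0.000872). Cytosolic and mitochondrial chaperones gave 1 rise and 1 fall in 29, and 30 ATF4 targets gave 2 falls, none of them called without either lysate library. Without the second untreated library ATF4 targets gave 3 rises and 4 falls, and with the GC and length trend removed they gave 4 and 4 and the chaperones 2 and 3.

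Matrix proteases and their regulators gave 8 rises and 1 fall in 21 (5 and 0 without either lysate library). Mmp13, a collagenase, was at 11.11 and 11.26 alone and 12.03 and 12.10 with lysate (0.88 ± 0.076, limma adjusted p = 1.17e-05). Mmp12, the macrophage elastase, was at 14.74 and 14.85 alone and 15.45 in both with lysate (0.66 ± 0.076, limma adjusted p = 0.000132). Plau, urokinase, rose by 0.52 ± 0.07 and Spp1, osteopontin, by 0.52 ± 0.074. Galectin, annexin and S100 genes gave 7 rises and 3 falls in 18 (4 and 1, then 4 and 0, without the lysate libraries in turn; 6 and 1 without the first untreated library): Lgals1 rose by 0.66 ± 0.071, Lgals3 by 0.57 ± 0.098 and Lgals9 by 0.47 ± 0.078. Purine genes gave 7 rises and 1 fall in 17 (5 and 4 rises without the lysate libraries in turn), with Nt5e, the ectoenzyme that makes adenosine, at 0.58 ± 0.09, the nucleoside transporter gene Slc29a3 at 0.55 ± 0.088, Ada at 0.53 ± 0.098 and Pnp at 0.44 ± 0.066. Prostaglandin and leukotriene genes gave 4 rises and 1 fall in 18 (0 and 2 rises without the lysate libraries in turn), none of them called in all 8 fits.

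The MHC class II genes that were called all fell, and 7 members were not called, 3 of them with a change above 0. Of 16 measured, 9 fell and none rose, with a median of -0.31; 7 fell without the first lysate library and 6 without the second. H2-Eb1 was at 15.10 and 14.98 alone and 14.43 and 14.41 with lysate (-0.61 ± 0.072, limma adjusted p = 0.000146). H2-Ab1 was at 14.62 and 14.48 alone and 14.02 and 13.997 with lysate (-0.54 ± 0.073, limma adjusted p = 0.000327). Cd74, the invariant chain and the most abundant member, was at 16.52 and 16.45 alone and 15.97 and 15.99 with lysate (-0.51 ± 0.071, limma adjusted p = 0.000454). Ciita, the transactivator of these genes, was at 10.37 and 10.27 alone and 9.90 and 9.79 with lysate (-0.48 ± 0.076, limma adjusted p = 0.00123). In these 4 genes the lysate libraries lay below both untreated libraries. H2-DMa, which helps peptide loading, fell by 0.54 and kept its call. H2-Aa fell by 0.36 and was not called without the first lysate library (adjusted p = 0.0533). H2-DMb1 and H2-DMb2 fell by 0.44 and 0.43 and were not called without the second (adjusted p 0.0507 and 0.0839).

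MHC class I presentation was mixed, with 3 rises and 4 falls in 25 (1 and 0 without the first lysate library, 1 and 1 without the second, 2 and 7 without the second untreated library, 6 and 7 with the GC and length trend removed). The classical genes H2-K1 and H2-D1 changed by -0.16 ± 0.08 and -0.12 ± 0.07, and B2m by 0.13 ± 0.092, none of them called. H2-T24 rose by 0.43 ± 0.067 (limma adjusted p = 0.001). Dendritic cell maturation genes gave 1 rise and 9 falls in 31 (0 and 6, then 0 and 5, without the lysate libraries in turn). Icosl, a costimulatory ligand, was at 9.69 and 9.56 alone and 9.08 and 9.01 with lysate (-0.58 ± 0.086, limma adjusted p = 0.000737). Fscn1, the actin bundler of mature dendritic cells, was at 14.72 and 14.49 alone and 14.02 and 14.10 with lysate (-0.55 ± 0.087, limma adjusted p = 0.00114). Slco5a1, Ccl17 and Cacnb3 fell by 0.59, 0.53 and 0.50. Cd274, the inhibitory ligand PD-L1, was the rise, at 0.27 ± 0.064, and lost the call without either lysate library or the first untreated library (highest adjusted p = 0.157).

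Ribosomal protein genes shifted downward by small amounts. Of 46 genes of the large subunit 19 fell and none rose, with a median of -0.24, and of 33 of the small subunit 17 fell and none rose, with a median of -0.27. Most calls in both subunits were lost without either lysate library, and fewer genes were called without the first untreated library. The medians stayed negative. Without the first lysate, second lysate and first untreated library in turn, the large subunit had medians of -0.18, -0.28 and -0.18. Those of the small subunit were -0.22, -0.33 and -0.24. Rps24 was at 13.46 and 13.50 alone and 12.97 and 13.04 with lysate (-0.47 ± 0.067, limma adjusted p = 0.000528) and alone among the genes of both subunits kept the call in all 8 fits. Many ribosomal protein genes have processed pseudogenes that could share their reads. With the GC and length trend removed, 21 and 17 fell. Without the second untreated library more were called, with medians of -0.28 for the large and -0.30 for the small subunit. Of 75 mitochondrial ribosomal protein genes 5 fell, with a median of -0.08 (1 without either lysate library or the first untreated library; 2 rises and 6 falls with the GC and length trend removed). Of 64 respiratory chain genes 2 rose and 4 fell (1 and 0, then 0 and 1, without the lysate libraries in turn, and 2 and 8 without the second untreated library). Among 43 translation factors 3 rose and 3 fell (1 and 1 without either lysate library, 7 and 4 without the second untreated library, 8 and 8 with the GC and length trend removed), with the cap-binding protein gene Eif4e at 8.89 and 9.03 alone and 9.43 in both with lysate (0.48 ± 0.082, limma adjusted p = 0.00195). Of 31 proteasome subunits 1 fell, and none was called without either lysate library; 2 rose and 2 fell without the second untreated library, and 4 rose and 1 fell with the GC and length trend removed.

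Cell cycle genes gave 6 rises and 2 falls in 47 (4 and 1 without either lysate library, 8 and 5 with the GC and length trend removed). Ccnd1, cyclin D1, was at 7.92 and 7.85 alone and 8.73 and 8.77 with lysate (0.86 ± 0.091, limma adjusted p = 7.17e-05), and Pcna, the sliding clamp of DNA replication, at 10.76 and 10.79 alone and 11.40 and 11.39 with lysate (0.62 ± 0.066, limma adjusted p = 8.35e-05). Cdkn2c was at 7.05 and 7.11 alone and 6.29 and 6.33 with lysate. Apoptosis and p53 genes gave 5 rises and 8 falls in 25 (1 and 4, then 2 and 2, without the lysate libraries, and 3 and 7 without the first untreated library). The survival gene Bcl2 was at 7.14 and 7.26 alone and 7.68 and 7.83 with lysate (0.56 ± 0.089, limma adjusted p = 0.00124), while the death receptor gene Fas fell by 0.55. GM-CSF receptor and STAT5 genes gave 2 rises and 1 fall in 18, none called in all 8 fits (0 and 2 without the second untreated library); the receptor gene Csf2rb was at 15.68 and 15.58 alone and 15.65 and 15.58 with lysate.

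Of 22 writers, erasers and readers of m6A, 1 rose and none fell. Without the second untreated library 3 rose, and with the GC and length trend removed 1 rose and 3 fell. Igf2bp2, an RNA-binding protein that stabilises m6A-marked mRNA, was at 7.61 and 7.49 alone and 8.23 and 8.22 with lysate (0.67 ± 0.11, limma adjusted p = 0.00161). Mettl3, the catalytic subunit of the methyltransferase, was at 7.63 and 7.66 alone and 7.47 and 7.46 with lysate, a change of -0.18 ± 0.097 that was not called (limma adjusted p = 0.238). Ythdf2, the reader that speeds decay of m6A mRNA, changed by -0.13 ± 0.074 (limma adjusted p = 0.268).

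Transcripts of pigment cell genes, which B16 melanoma expresses, rose with lysate. Dct and Tyrp1, enzymes of pigment synthesis, stood at 4.87 and 4.84 and at 4.92 and 4.91 in the untreated libraries and at 6.20 and 6.13 and at 6.25 and 6.08 with lysate. Changes of 1.31 ± 0.087 and 1.24 ± 0.092 (limma adjusted p = 2.09e-06 and 3.08e-06) put them among the 15 largest rises. The melanosome gene Pmel rose by 0.88 ± 0.1 and the transporter gene Slc45a2 by 0.61 ± 0.075. Of 10 measured pigment cell genes 7 rose and 2 fell (7 and 1, then 6 and 0, without the lysate libraries in turn). The summed level of the list, on a linear scale and then in log2, was 16.16 and 16.11 alone and 16.69 and 16.72 with lysate, but 94.6% of that sum in the untreated libraries was Gpnmb, a lysosomal glycoprotein that dendritic cells also make (16.08 and 16.02 alone, 16.63 and 16.66 with lysate). Pigment gene transcripts moved with the lysate groups, and the part of tumour RNA in the other changes was not tested. Another list held genes of melanoma or stromal cells, chosen as genes that do not mark leukocytes. Of its 10 measured genes 1 rose and 1 fell, with a median of -0.06. The rise was Cdh1 (0.42 ± 0.11), a call lost without either lysate library or the first untreated library. The fall was Cdh2 (-0.55 ± 0.1). The summed level of this list was 10.36 and 10.445 alone and 10.34 and 10.44 with lysate. Acta2 made up 60.1% of that sum in the untreated libraries.

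Markers of the labelled cell type were present: in the untreated libraries Itgax (CD11c) was at 11.15 and 10.97, Zbtb46 at 9.61 and 9.59, Irf8 at 14.23 and 14.06 and H2-Aa at 15.39 in both. Macrophage and monocyte markers were also high, with Lyz2 at 16.68 and 16.67 and Cd68 as given above, and RNA of a changed cell mixture and changed RNA per cell cannot be told apart in bulk samples. Of 16 measured conventional dendritic cell markers (19 listed) 6 fell, Zbtb46 among them by 0.27 (highest adjusted p = 0.207 with 1 library left out), and none rose (2 and 1 fell without the lysate libraries in turn, and 1 rose and 3 fell without the first untreated library), and the summed level was 16.12 and 16.01 alone and 15.98 and 15.96 with lysate. Irf4 was at 10.07 and 10.15 alone and 9.77 and 9.70 with lysate (-0.37 ± 0.073, limma adjusted p = 0.00455) and was not called without the second lysate library (adjusted p = 0.0741). Of 20 macrophage markers 4 rose and 2 fell, with a summed level of 17.73 and 17.66 alone and 17.68 and 17.72 with lysate; Adgre4 was at 7.44 and 7.71 alone and 6.78 and 7.01 with lysate (-0.68 ± 0.11, limma adjusted p = 0.00141). Of 24 neutrophil markers 3 rose and 2 fell (1 and 0, then 0 and 0, without the lysate libraries in turn, 1 and 2 without the first untreated library, and 5 and 3 with the GC and length trend removed), and the summed level was 14.38 and 14.39 alone and 14.48 and 14.54 with lysate. Markers of mast cells gave 1 fall in 4, of eosinophils 1 rise in 5 (2 with the GC and length trend removed), of B cells 1 rise and 1 fall in 2, of erythroid cells 1 rise in 2, and of T and NK cells and plasmacytoid dendritic cells no call by limma in 3 and in 6 (1 and 0 with an unadjusted p under 0.05). Each of these single calls was lost with at least 1 of the lysate libraries left out. Of 4 genes that mark sex none was called (0 with an unadjusted p under 0.05), and 1 rose without the second untreated library. The part of such cells in the results was not tested.

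**Figure D5:**
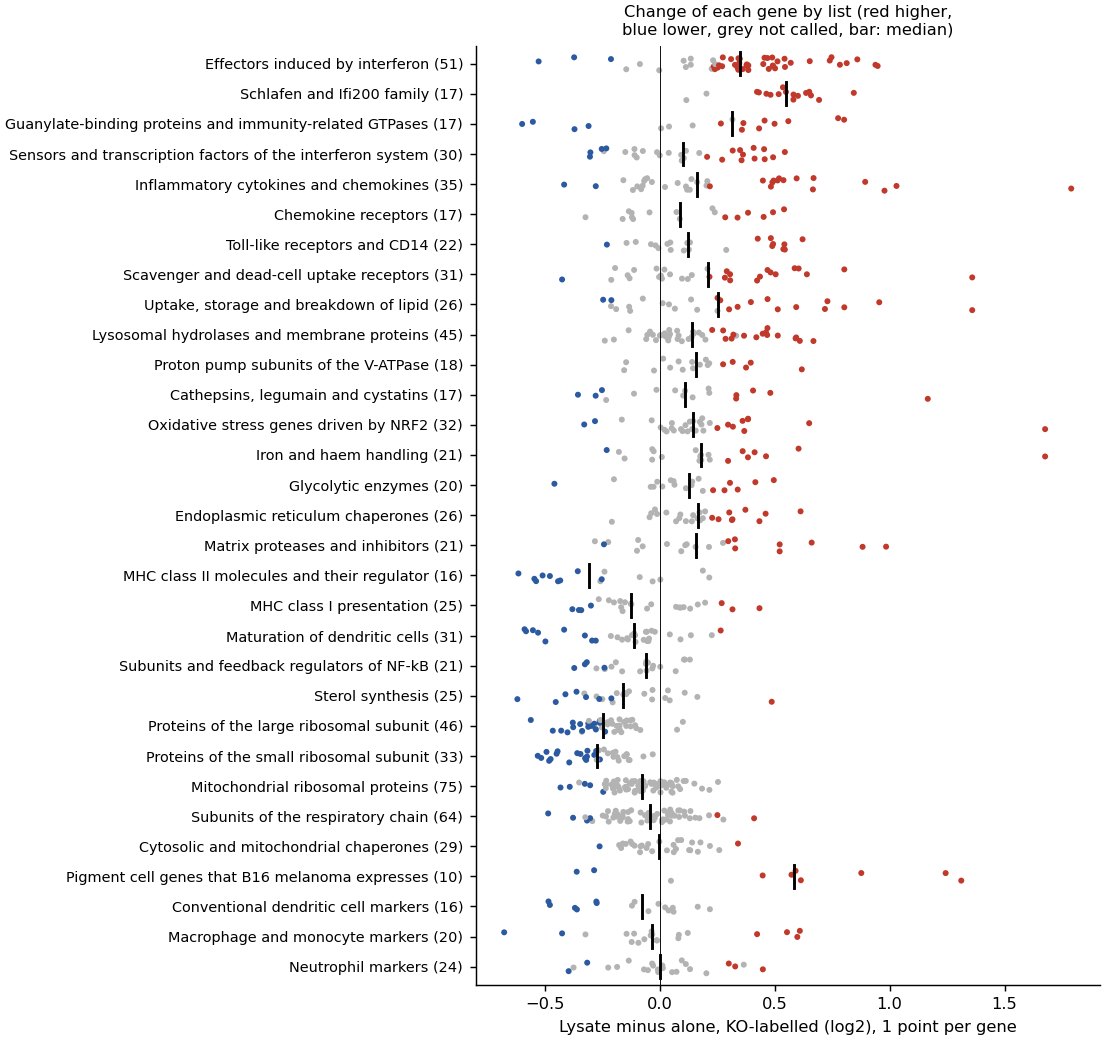
Lysate change in the ythdf1-/- cells (x axis, log2) for each measured gene of 31 lists, red where it rose, blue where it fell and grey where it was not called, with a bar at the list's median and the number of measured genes in brackets. The Schlafen and Ifi200 list has its median at 0.55 and the pigment cell list at 0.58, while the MHC class II and both ribosomal protein lists have theirs at -0.31, -0.24 and -0.27.

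Wild-type cells gave 2534 calls for lysate (21.5%) in the same fit, 1205 higher (10.2%) and 1329 lower (11.3%). Of the 976 genes that rose in ythdf1-/- cells 643 (65.9%) were also called higher in wild type, and of the 816 that fell 489 (59.9%) were also called lower; 5 were called in opposite directions. A gene called in 1 genotype and not in the other is not thereby different, and the test of the difference itself called 13 genes (0.11%), all with a higher change in the ythdf1-/- cells. That count ranged from 0 to 32 when 1 library was left out and was 0 without either ythdf1-/- lysate library. Of these, 3 rose in the ythdf1-/- cells: Irf7, which fell in wild type, and Slfn4 and Siglec1, a sialic acid-binding lectin of macrophages, which were not called there. Untreated levels of interferon genes also lay apart between the genotypes, which was not tested: Rsad2 stood at 12.81 and 12.68 alone and 13.56 and 13.55 with lysate in wild type, and Epsti1 at 12.40 in both alone and 12.10 and 11.98 with lysate. Siglec1 was at 9.85 and 9.63 alone and 10.34 and 10.32 with lysate in ythdf1-/- cells, and at 10.58 and 10.71 alone and 10.60 and 10.46 with lysate in wild type, a difference of changes of 0.71 ± 0.12 (limma adjusted p = 0.0481). In Irf7 the wild-type libraries were at 12.03 and 12.17 alone and 11.83 and 11.91 with lysate, a fall from levels above the untreated ythdf1-/- libraries, and the difference of changes was 0.68 ± 0.1 (limma adjusted p = 0.026). In the other 10 the ythdf1-/- change was not called and the wild-type level fell.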

How the data were processed

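Messenger RNA was sequenced from 8 libraries of bone marrow-derived dendritic cells, 2 in each of 4 groups. The authors deposited a table of log2 values for 11786 genes by Entrez identifier. It is read here as DESeq2's regularised log2 of gene counts, which shrinks the changes of low genes, because DESeq2, STAR, deepTools and build mm9 are listed in the submitters' processing notes and the name of the deposited table points to it. No source used here states the exact scaling, the values carry no counts, and depth is unknown. A stranded mRNA kit was used, per the labels' protocols.

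Genes with a largest group mean of at least 4 were kept, which removed 1 and left 11785. Group means were fitted with limma 3.58.1 (R 4.3.3) on all 8 libraries with a mean-variance trend, with p-values adjusted by the Benjamini-Hochberg method and a threshold of 0.05. The fit was run on simulated data with noise drawn independently for each gene and library. Noise shared across genes, such as a GC trend, was not part of that run. Symbols were matched through the reference tables for 11744 genes, and transcript GC content and length for 11487 (97.5%). Promoters are RefSeq's on GRCm38.p6, 250 bases searched on both strands. The text names Ythdf1, the 15 largest rises and 15 deepest falls with separated groups and a symbol, up to 8 members with the smallest p and 3 with the highest untreated level from each of 58 gene lists, whole lists of up to 12, and the genes whose lysate effect differed between genotypes. Genes outside the rule are marked as named after their values were seen. The gene lists and members were chosen with earlier results of these data known. The immunoprecipitation samples were not used here. Some genes that the rule covers are not reported here.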

Additional observations from a re-analysis of the deposited data

Results flagged for a closer look

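The lysate effect differed between the genotypes for 13 genes by limma's test of the difference, and each is given as the change in ythdf1-/- cells minus the change in wild type. Hspa1b stood at 1.13, Hspa1a at 1.05 and Apoa1 at 0.99. Hspa1a and Hspa1b are near-identical copies, so their reads may be split. Apoa1 was at the lowest value of the table in all 4 ythdf1-/- libraries and in both wild-type lysate libraries (3.24 in both), and above it only in untreated wild type (4.29 and 4.17). It passed the filter only through untreated wild type, so its difference is the wild-type fall and no measured response of the ythdf1-/- cells. Ly6i stood at 0.80, Hp at 0.76, Ly6c1 at 0.73 and Ly6c2 at 0.68, the last 2 being close copies. Siglec1 stood at 0.71, Irf7 at 0.68, Slfn4 at 0.64, Trem1 at 0.67, C3 at 0.67 and Cfb at 0.61. Adjusted p-values of the other 12 lay between 0.026 and 0.0481. Apoa1 (0.00467) was thus the only gene under 0.01. With 2 libraries a group, no gene was called when either ythdf1-/- lysate library or the first wild-type lysate library was left out.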

How the results depend on the processing

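The count of genes changed by lysate in ythdf1-/- cells (1792) became 2875 (1508 higher, 1367 lower) after removal of the per-library trend with GC content and transcript length and 759 at a threshold of 0.01. With 1 library left out it ranged from 564 to 2275. It lay between 1662 and 1838 with those libraries fitted alone, no filter, a filter at 6, centring, quantile scaling, no variance trend or a robust fit. The replicate block gave 1407, and 2623 with the GC and length trend removed as well. Deviations of the libraries numbered 1 from their group means correlated at -0.05 between the untreated and lysate ythdf1-/- groups. The correlation was -0.61 between the untreated groups of both genotypes and -0.27 between wild type with lysate and untreated ythdf1-/- cells. Between the wild-type groups it was 0.26. What the lower counts with the block reflect was not tested. The count of differing genes (13) became 1 with the replicate block, 8 with the filter at 6, 1 without the variance trend, 86 (77 higher, 9 lower) with the GC and length trend removed, 55 (48 and 7) with that and the replicate block, and 1 at 0.01. With 1 library left out it ranged from 0 to 32. The causes were not tested. Of the 515 genes that the naming rule covers, 148 and 153 lost the call without the first or second ythdf1-/- lysate library, while removal of the GC and length trend ended 3 calls and added 56. It moved the call counts of 19 of 58 gene lists by over 1.5 times. Among the 515 genes, no called direction reversed under any alternative run, and the other genes were not checked for this. Without counts, the depth behind low genes cannot be judged.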
